A study of Mus musculus with 6 samples.

Results

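The genes described here encode subunits of respiratory complexes II, III, IV and V of mitochondria, measured in the livers of wildtype mice and of mice labelled deficient in Ugcg. They were taken by symbol: Sdha to Sdhd for complex II, Uqcr genes and Cyc1 for complex III, Cox4 to Cox8 genes for complex IV and Atp5 genes for complex V. This gave 36 genes out of 16331 gene probe sets, of which 4 belonged to complex II, 7 to complex III, 15 to complex IV and 10 to complex V. The rule itself reads symbols only. Of the 36 genes, 35 encode subunits of the complexes, and Cox7a2l encodes a relative of subunit 7a that joins complexes III and IV into supercomplexes. A further 12 genes whose symbols fit the rule, among them Cox5b, Cox7c, Uqcrb, Atp5c1 and Atp5o, were not analysed here.

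The series compared 3 wildtype liver samples (arrays 426, 428 and 430) with 3 Ugcg-deficient ones (arrays 427, 429 and 431, called knockout arrays after their label). Ugcg makes glucosylceramide, the first glycosphingolipid of the pathway, and the series title places the deficiency in the liver. The labels give no allele, Cre driver, strain, sex, age, diet or time of sampling. They also leave unsaid whether the samples are separate animals. The p-values therefore refer to the spread among these 6 samples, part of which may be technical.

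Complex II, succinate dehydrogenase, feeds electrons from the citric acid cycle into coenzyme Q. Complex III passes them on to cytochrome c, complex IV reduces oxygen with them, and complex V uses the resulting proton gradient to make ATP. All 4 complex II subunits are encoded in the nucleus, whereas complexes III, IV and V also contain subunits made in the mitochondrion. Hepatocytes depend on this chain for the ATP that gluconeogenesis and urea synthesis consume. Several complex IV subunits come in a common isoform, also called the liver type, and an isoform of heart and skeletal muscle or of testis.

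Regulatory sequence was set beside the array values for the genes with an entry in the RefSeq promoter table, which gives 300 bases around a transcript's start (assembly GRCm38.p6). Of the 36 genes, 25 had an entry; Atp5a1, Atp5mpl, Cox4i1, Cox4i2, Cox6a2, Cox6c, Cox8c, Cyc1, Sdhc, Uqcrc2 and Uqcrq had none. Both strands were searched for letters that the respiratory gene regulators NRF1, ERR, GABP and YY1 are known to bind. The NRF1 letters GCGCATGC stood in 4 of the 25 genes (16% against 3.05% of 27025 genes), and the ERR letters TCAAGGTCA in 2 (8% against 0.466%). A match describes the letters only. The 4 NRF1 and 2 ERR stretches are printed because these factors have long been linked to respiratory genes; capitals mark the match, each stretch is read along its gene, and the ERR and Sdhb matches lie on the opposite strand.

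Sdhb, chr4:140961197-140961244, plus strand: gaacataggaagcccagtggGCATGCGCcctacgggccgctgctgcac
Uqcrc1, chr9:108936658-108936697, plus strand: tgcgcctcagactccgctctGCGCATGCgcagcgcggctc
Cox6a1, chr5:115349093-115349140, minus strand: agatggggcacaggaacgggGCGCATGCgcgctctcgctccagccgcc
Atp5k, chr5:108434422-108434469, minus strand: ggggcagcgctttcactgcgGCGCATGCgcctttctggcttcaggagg
Sdhd, chr9:50603800-50603833, minus strand: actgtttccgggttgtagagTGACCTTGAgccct
Atp5g3, chr2:73911350-73911398, minus strand: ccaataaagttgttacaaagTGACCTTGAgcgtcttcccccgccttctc

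In Uqcrc1, Cox6a1 and Atp5k the NRF1 letters are followed by GC, so that the reverse complement GCATGCGC overlaps them. The GABP letters CCGGAAGT stood in Uqcrh and Cox8a (8% against 4.31%), and the YY1 letters AAGATGGC in Atp5j and Atp5j2 (8% against 3.19%). The number of CG pairs in the window differed between the tissue-specific isoforms and the other genes, which came from complexes II to V. For a gene with several windows the highest number was taken. The 4 tissue-specific isoforms in the table held 2 to 10 CG pairs (Cox8b 2, Cox7a1 7, Cox6b2 10 and Cox7b2 10), and the other 21 genes held 13 to 43, with medians of 8.5 and 19. The median over all 27025 genes was 8. The windows of the subunit 6b isoforms, both on chromosome 7, show the contrast, with CG pairs in capitals, and belong to the gene whose array values stood apart most and to its common counterpart.

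Cox6b1, common isoform, chr7:30626065-30626364, minus strand: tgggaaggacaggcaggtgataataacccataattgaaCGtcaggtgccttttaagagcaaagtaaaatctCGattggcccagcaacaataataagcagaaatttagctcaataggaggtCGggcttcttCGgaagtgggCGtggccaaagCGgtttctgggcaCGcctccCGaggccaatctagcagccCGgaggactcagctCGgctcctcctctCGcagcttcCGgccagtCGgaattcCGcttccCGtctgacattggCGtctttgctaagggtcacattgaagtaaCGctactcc
Cox6b2, testis isoform, chr7:4753045-4753344, minus strand: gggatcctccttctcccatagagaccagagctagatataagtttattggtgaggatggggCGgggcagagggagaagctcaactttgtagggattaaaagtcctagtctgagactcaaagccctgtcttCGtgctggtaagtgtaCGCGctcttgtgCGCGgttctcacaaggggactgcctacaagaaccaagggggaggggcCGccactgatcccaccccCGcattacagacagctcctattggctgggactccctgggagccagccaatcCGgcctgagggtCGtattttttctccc

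Array medians lay between 6.79 and 6.81 on the log2 scale. The first principal component, 31.5% of the variance, placed wildtype 430 (14.5) and knockout 427 (11.9) apart from the other arrays (-9.44 to -3.69). All 10 hepatocyte markers, such as Alb, read 12.44 or more on every array. Markers of other tissues and cell types differed on single arrays. The mean of 13 exocrine pancreas genes lay 1.68 above its wildtype mean on wildtype 430. It lay at -0.92 to -0.77 elsewhere, as wildtype 430 is part of that wildtype mean. The mean of 15 muscle genes lay 0.61 above on knockout 427 (-0.03 to 0.04 elsewhere), and that of 11 adipose genes 0.57 above on knockout 431 (-0.07 to 0.05 elsewhere). Kupffer cell markers stood at -0.41 on knockout 431 and 0.22 on knockout 429. Bile duct markers stood at 0.25 on knockout 429, where their median was 0.07. The Ugcg probe set read 6.81, 6.85 and 6.87 on wildtype and 7.12, 6.70 and 6.68 on knockout arrays 427, 429 and 431, with knockout 427 highest. Which part of the gene it reads is not stated, so it does not check the labels. In such tissue RNA, fewer cells of a type and less RNA per cell cannot be told apart.

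The comparison asked whether respiratory subunit transcripts differed between knockout and wildtype livers. None of the 36 genes passed the limma test at an adjusted p under 0.05, where 0.0245% of all probe sets did, and none had an unadjusted p under 0.05 (2.64% of all probe sets were higher and 2.35% lower at that level). The count at an unadjusted p under 0.05 was 1 with array weights (2.78%, against 5.61% of all probe sets). It was 1 without knockout 427 (2.78%, against 4.97%), 2 without wildtype 430 (5.56%, against 6.95%) and 4 without knockout 431 (11.1%, against 6.26%). With all arrays, the smallest limma adjusted p among the 36 genes was 0.982. Differences, given here as knockout minus wildtype on the log2 scale, ran from -0.21 for Uqcrq to 0.18 for Cox8b. Of the 36, 20 were above 0 and 16 below, a share of 55.6% against 52.5% over all probe sets, and the median difference was 0.00618 against 0.00586.

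The intervals show which sizes of change the data allow. The 95% interval lay within 0.5 of 0, on either side, for 34 of the 36 genes (94.4%, against 94.7% of all probe sets), and within 0.25 for 22 (61.1%, against 43.2%). Cox6b2 and Cox8b were the exceptions at 0.5. The SD between arrays of a group had a median of 0.0732 over the 36 genes and 0.103 over all probe sets. It was smallest for Atp5mpl (0.0104), a small membrane subunit of ATP synthase, and Cox6a1 (0.0181), the common isoform of subunit 6a. Even for Atp5mpl the 95% interval ran from -0.128 to 0.160, so a steady reading does not show that a difference is 0.

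**Figure D1:**
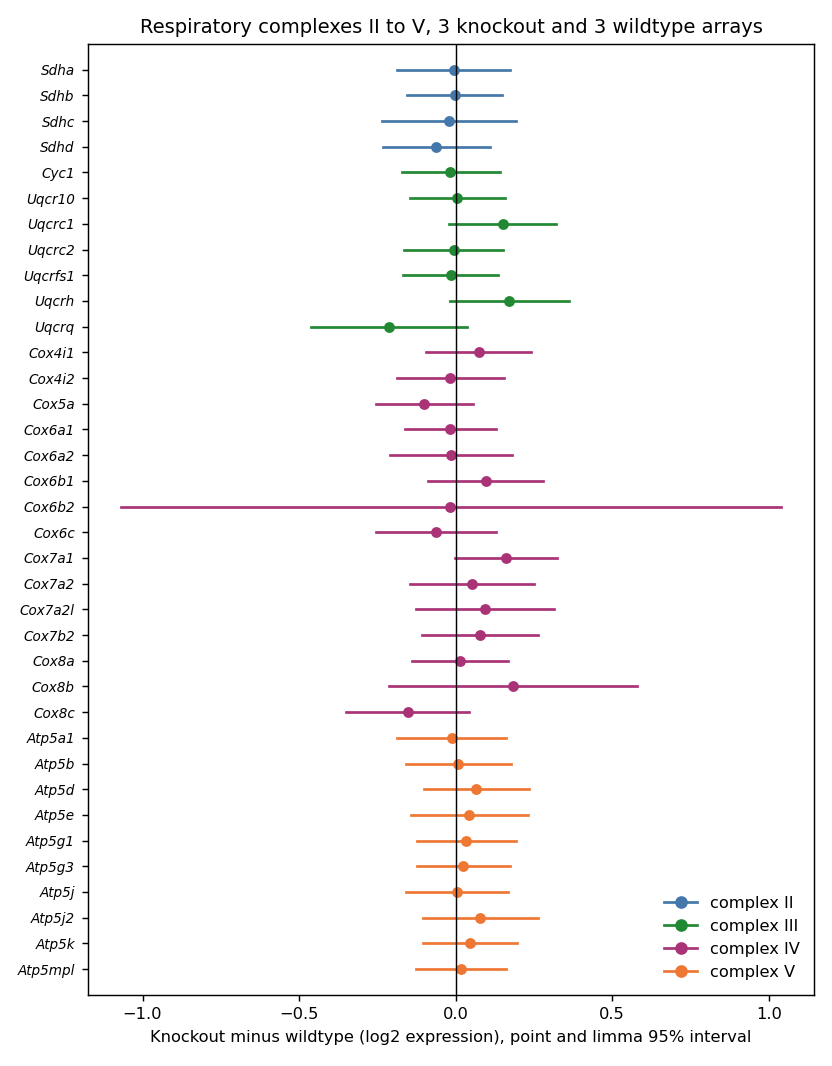
Knockout minus wildtype difference in log2 expression (points) with its limma 95% interval (lines) for the 36 genes, coloured by complex, from 3 arrays per group. All intervals include 0; Cox6b2 has the widest, from -1.07 to 1.04.

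In complex II no subunit passed the test. Sdha, the flavoprotein that oxidises succinate, read 12.00, 11.98 and 12.02 on wildtype arrays 426, 428 and 430, and 11.86, 12.03 and 12.09 on knockout arrays 427, 429 and 431. The knockout arrays thus lay on both sides of the wildtype arrays, with knockout 427 lowest. Its difference was -0.01 (SE 0.08, limma adjusted p = 0.996). Sdhb, the iron-sulphur subunit, differed by -0.0026 (SE 0.0669, 95% interval within 0.25 of 0).

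The membrane anchors did not pass either. Sdhc read 10.69, 10.57 and 10.36 on wildtype and 10.50, 10.46 and 10.60 on knockout arrays, so that wildtype 426 was highest and wildtype 430 lowest. Sdhd read 11.18, 11.04 and 11.14 on wildtype and 10.98, 11.07 and 11.12 on knockout arrays, again with overlap and knockout 427 lowest. Their differences were -0.02 (SE 0.09) and -0.06 (SE 0.07, limma adjusted p = 0.986). All 4 differences of complex II lay below 0 (median -0.0138), but without knockout 427 the median was 0.00521.

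In complex III, 3 subunits differed by over 0.1, in both directions, and none passed the test. Uqcrq (Entrez gene 22272), a small subunit also known as QP-C, read 9.61, 9.70 and 9.80 on wildtype arrays and 9.35, 9.39 and 9.73 on knockout arrays. Knockout 427 and 429 lay below all wildtype arrays, whereas knockout 431 lay among them. The means were 9.71 ± 0.09 and 9.49 ± 0.21 (SD, n = 3 each), a difference of -0.21 (SE 0.11, limma adjusted p = 0.982). It was -0.334 without knockout 431 and -0.0962 without both wildtype 430 and knockout 427.

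Uqcrh (Entrez gene 66576), the hinge protein near cytochrome c1, read 11.79, 11.90 and 11.99 on wildtype and 12.12, 12.12 and 11.95 on knockout arrays. Knockout 427 and 429 were above all wildtype arrays and knockout 431 was not. The difference was 0.17 (SE 0.08, 95% interval -0.0189 to 0.361, limma adjusted p = 0.982). Under symbols that carry the name of the parent gene, the RefSeq table lists 2 pseudogenes of Uqcrh and 4 of Atp5k. Copies under other names were not counted for any gene. No probes of the genes described here were checked for reading such copies.

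Uqcrc1, a core protein that faces the matrix, read 11.09, 11.21 and 11.13 on wildtype and 11.21, 11.30 and 11.37 on knockout arrays. The groups met at 11.21, and the difference was 0.15 (SE 0.08, 95% interval -0.0210 to 0.321, limma adjusted p = 0.982). Its partner Uqcrc2 differed by -0.00684. The catalytic subunits Cyc1, cytochrome c1, and Uqcrfs1, the Rieske iron-sulphur protein, differed by -0.0169 and -0.0163, and the small subunit Uqcr10 by 0.00456. The 3 genes with differences above 0.1 in size therefore stood beside 4 that lay within 0.02 of 0, and the median of the complex was -0.00684.

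**Figure D2:**
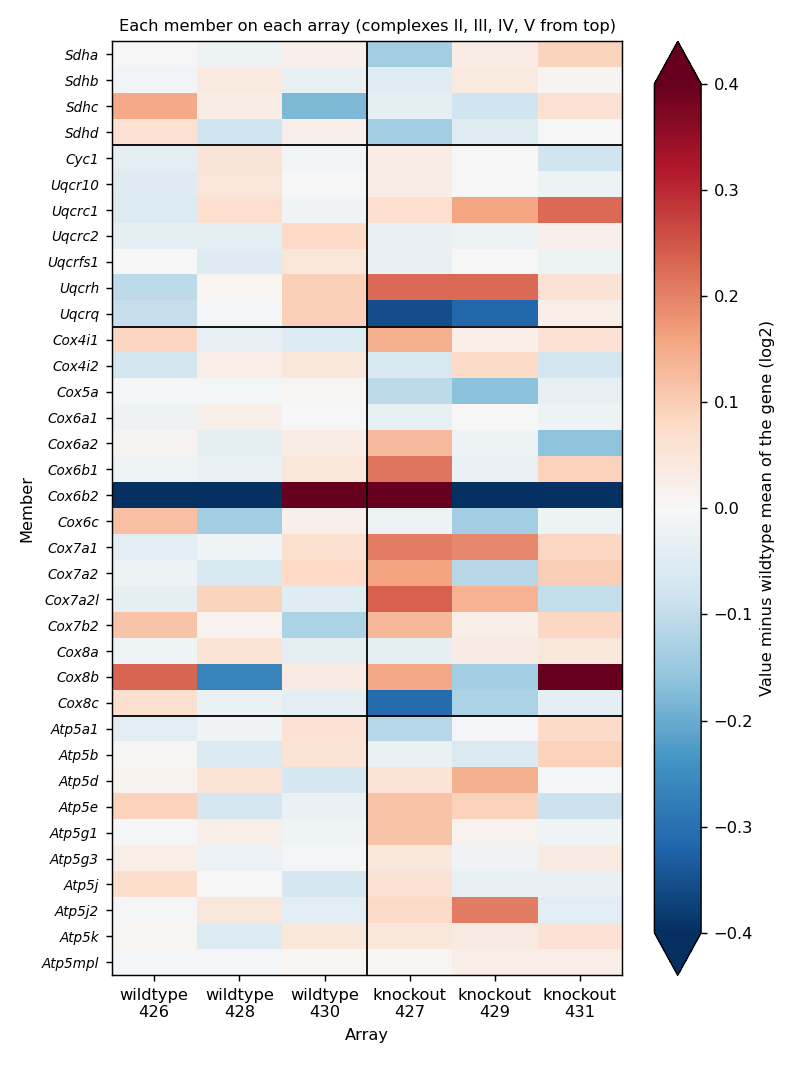
Value of each of the 36 genes (rows, complexes II to V from top) on each of the 6 arrays (columns), minus the wildtype mean of the gene, on the log2 scale; colours stop at 0.4 in size. Cox6b2 stands out on wildtype 430 and knockout 427, and Uqcrq is low on knockout 427 and 429.

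Complex IV contained the 2 genes whose groups did not overlap in the deposited values; after quantile normalization 5 of the 36 genes did not overlap (13.9%, against 9.93% of all probe sets). Cox5a (Entrez gene 12858), a nuclear subunit present in every tissue, read 12.47, 12.47 and 12.48 on wildtype arrays and 12.37, 12.31 and 12.44 on knockout arrays. All knockout arrays lay below all wildtype arrays, by a margin of a few hundredths. The means were 12.47 ± 0.01 and 12.37 ± 0.07 (SD, n = 3 each), and the difference of -0.10 (SE 0.07, 95% interval -0.256 to 0.0555) did not pass (limma adjusted p = 0.982).

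Cox7a1 (Entrez gene 12865), the heart and muscle isoform of subunit 7a, read 6.64, 6.67 and 6.75 on wildtype and 6.89, 6.88 and 6.77 on knockout arrays. All knockout arrays lay above all wildtype arrays, with knockout 431 only just so. The difference was 0.16 (SE 0.07, 95% interval -0.00288 to 0.322, limma adjusted p = 0.982). One gene of 36 in each direction compares with 5.10% of all probe sets whose knockout arrays lay above and 4.47% whose knockout arrays lay below. Muscle markers were raised on knockout 427, where the mean of the 15 genes was 0.61 above its wildtype mean, and close to it on knockout 429 (0.02) and 431 (-0.03). For 2 of the 15, as for Cox7a1, all knockout arrays lay above all wildtype arrays. Mb, myoglobin, read at most 6.28 on wildtype arrays and 7.12, 6.67 and 6.33 on knockout arrays 427, 429 and 431. Tnnt3, a troponin of fast muscle, read 5.86 to 5.91 on wildtype arrays and 5.95 to 6.64 on knockout arrays, with knockout 427 highest. Acta1, skeletal muscle actin, read 8.48 on knockout 427 and 6.28 to 6.63 elsewhere. On knockout 427 the myosin genes Myh4 (5.83) and Myh7 (6.06) lay within their wildtype ranges. Myh2 (5.91, wildtype 6.02 to 6.11) and Pvalb (6.52, wildtype 6.59 to 6.74) lay below theirs on that array. These markers were named after their values were seen. Without knockout 427 the Cox7a1 difference was 0.138.

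The other isoforms of muscle showed no common movement. Cox6a2 read 7.20, 7.15 and 7.22 on wildtype and 7.32, 7.17 and 7.03 on knockout arrays, so knockout arrays were both highest and lowest. Cox8b read 6.55, 6.05 and 6.35 on wildtype and 6.47, 6.18 and 6.85 on knockout arrays, with knockout 431 highest and the groups overlapping. Its difference of 0.18 (SE 0.17, limma adjusted p = 0.984) was 0.00732 without knockout 431, 0.0506 without wildtype 428, 0.299 without wildtype 426 and 0.343 without knockout 429. Cox8b and Cox7a1 are also genes of brown fat, whose marker Ucp1 read 6.84 on knockout 431 and 5.83 to 6.08 elsewhere. The mean of the 11 adipose genes lay 0.57 above its wildtype mean on knockout 431, but its members differed. Cidea read 7.25 on knockout 431 and also 7.11 on wildtype 426, against 6.18 to 6.43 elsewhere. On knockout 431, Car3 (13.75, wildtype 13.78 to 13.84) lay below its wildtype range. Cidec (6.31) and Pck1 (11.73) lay within theirs on that array. The part of adipose or muscle RNA in the values of these isoforms was not tested.

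None of the common isoforms of these subunits passed the test. Cox6a1 read 13.58, 13.62 and 13.60 on wildtype and 13.57, 13.60 and 13.58 on knockout arrays, a range of 0.05 over all 6 arrays. Cox4i1 read 12.68, 12.56 and 12.54 on wildtype and 12.74, 12.62 and 12.65 on knockout arrays. Cox7a2 read 12.37, 12.33 and 12.47 on wildtype and 12.55, 12.28 and 12.49 on knockout arrays. The groups overlapped for all of these genes. Cox8a read 11.05, 11.12 and 11.03 on wildtype and 11.03, 11.10 and 11.11 on knockout arrays.

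The differences were -0.02 for Cox6a1, 0.07 for Cox4i1, 0.05 for Cox7a2 and 0.01 for Cox8a (limma adjusted p from 0.986 to 0.996). Cox4i2, an isoform of subunit 4 known from lung and oxygen sensing, read 6.12, 6.22 and 6.24 on wildtype and 6.13, 6.27 and 6.12 on knockout arrays and differed by -0.02 (SE 0.08). Of the remaining complex IV genes, Cox6b1 (0.0957), Cox7a2l (0.0928), Cox7b2 (0.0773) and Cox6c (-0.0618) overlapped between groups. Readings of Cox7b2, Cox4i2 and Cox8b were low, at the 5.14th, 23.9th and 35.7th percentiles of mean readings. Changes in these genes could therefore be compressed. Cox8c, a testis isoform of subunit 8, read 8.42, 8.33 and 8.32 on wildtype and 8.05, 8.23 and 8.32 on knockout arrays. It was lowest on knockout 427 and differed by -0.15 (SE 0.09, limma adjusted p = 0.982), and by -0.0773 without that array.

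**Figure D3:**
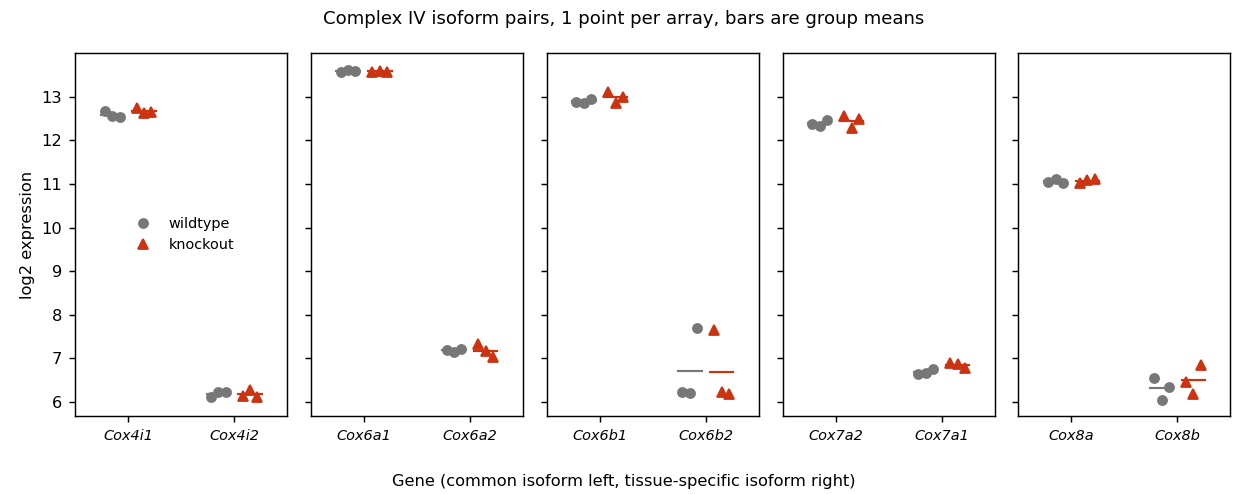
Log2 expression of 5 common isoforms of complex IV subunits (left of each panel) and their tissue-specific counterparts (right), 1 point per array with group means as bars (wildtype grey circles, knockout red triangles). Cox6b2 has 1 array of each group near 7.7 and the others near 6.2; readings of different probe sets do not rank genes by abundance.

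Cox6b2 (Entrez gene 333182), the testis isoform of subunit 6b, varied more than any other of the 36 genes, and not by genotype. It was singled out after its values were seen. It read 6.23, 6.21 and 7.69 on wildtype arrays 426, 428 and 430, and 7.66, 6.24 and 6.18 on knockout arrays 427, 429 and 431. Thus 1 array of each group was high and 2 of each were low, and the group means differed by -0.0166 (SE 0.466, limma adjusted p = 1). Without wildtype 430 the difference was 0.472, and without knockout 427 it was -0.499. With both left out it was -0.00977.

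The gap between the second highest of the 6 values and the next was 1.42 for Cox6b2, the largest of all 16331 probe sets, whose median gap was 0.04. The next largest among the 36 genes was 0.13, for Uqcrh. A gap of 1 or more before rounding occurred for 5 probe sets (Abhd5 lay just under it). In 4 of them the highest values were those of wildtype 430 and knockout 427, as in 9.49% of all probe sets. The first principal component, which set these arrays apart, was computed from the same values and is no separate support. Of these arrays, wildtype 430 had raised exocrine pancreas markers (mean 1.68, against -0.92 on knockout 427). Knockout 427 had raised muscle markers (mean 0.61, against 0.04 on wildtype 430). The cause of the shared high readings was not tested. The common isoform Cox6b1 read 12.88, 12.87 and 12.94 on wildtype and 13.11, 12.87 and 12.99 on knockout arrays, and knockout 427 was its highest array.

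**Figure D4:**
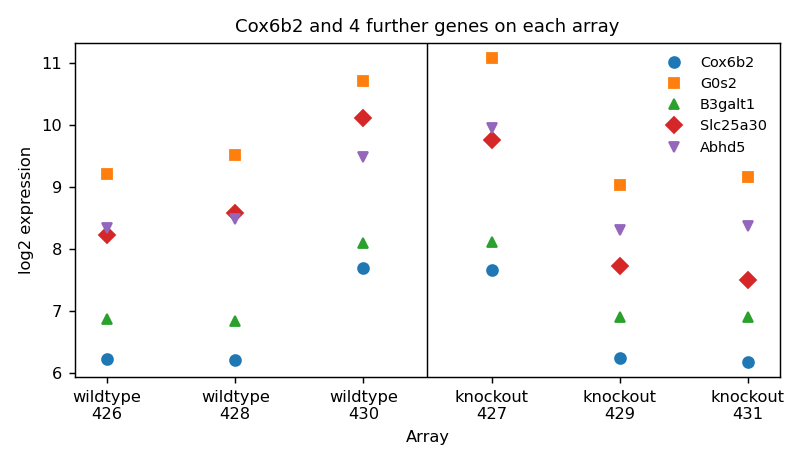
Log2 expression of Cox6b2 and of the 4 further genes with the next largest gaps on the same arrays, 1 point per array (3 wildtype, 3 knockout). All 5 genes read highest on wildtype 430 and knockout 427.

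In complex V no gene passed, and 9 of the 10 differences lay above 0, with a median of 0.0286 and a range from -0.0130 to 0.0781. Each was smaller than its own standard error. The median was 0.0139 without wildtype 428, and 7 of 10 lay above 0 without both wildtype 430 and knockout 427. Atp5a1 and Atp5b, the alpha and beta subunits of the catalytic head, differed by -0.0130 and 0.00781. Of the central stalk subunits, Atp5d differed by 0.07 (SE 0.07) and Atp5e by 0.04. Atp5d read 11.49, 11.53 and 11.41 on wildtype and 11.53, 11.62 and 11.47 on knockout arrays, with knockout 429 highest and wildtype 430 lowest.

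The membrane ring of subunit c is encoded by 3 genes whose mature products are the same protein, of which Atp5g2 was not analysed here. Atp5g3 read 13.32, 13.27 and 13.29 on wildtype and 13.34, 13.28 and 13.33 on knockout arrays, a difference of 0.02 (SE 0.07). Atp5g1 read 5.73, 5.76 and 5.72 on wildtype and 5.85, 5.75 and 5.72 on knockout arrays, with knockout 427 highest. This probe set lay at the 2.67th percentile of mean readings, near the floor of the arrays, so that a change in Atp5g1 could be compressed. The difference was 0.03 (SE 0.07), and it was -0.00635 without knockout 427.

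The membrane and peripheral stalk subunits did not pass. Atp5j2 read 12.27, 12.32 and 12.23 on wildtype and 12.35, 12.48 and 12.23 on knockout arrays, with knockout 429 highest and a difference of 0.08 (SE 0.08, limma adjusted p = 0.986). It was 0.0150 without knockout 429 and 0.138 without knockout 431. Atp5k, which helps ATP synthase to form dimers, read 12.37, 12.31 and 12.41 on wildtype and 12.41, 12.40 and 12.42 on knockout arrays, a difference of 0.05 (SE 0.07). Its groups overlapped through wildtype 430. Atp5j, coupling factor 6, differed by 0.00391 and Atp5mpl by 0.0163.

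Among the other genes of the respiratory chain, the list of assembly factors of complexes II to V had 29 measured genes, of which 15 were higher and 14 lower (median 0.0013). None passed; Lyrm7, which loads the Rieske protein, differed by -0.21, the complex V factor Tmem70 by 0.14, and Sco1 and Cox18 by -0.13 each. Of 15 genes for cytochrome c and coenzyme Q, 8 were higher and 7 lower (median 0.0397) and none passed, with 0.31 for Coq10b, 0.18 for Coq8b, -0.15 for Coq3 and -0.11 for Coq9. Of 19 regulators, 9 were higher and 10 lower (median -0.0153). The coactivator Ppargc1a differed by -0.33 (limma adjusted p = 0.951), Sirt1 by -0.25, Yy1 by -0.19 and Esrra, which binds ERR sites, by 0.21, and none passed. Ppargc1a read 7.01, 7.14 and 7.25 on wildtype and 7.01, 6.78 and 6.62 on knockout arrays, with knockout 427 level with wildtype 426.

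Complex I, the entry point for NADH, had 43 measured Nduf genes, of which 28 were higher and 15 lower (median 0.0273). The split was 22 to 21 without knockout 427 (median 0.00244) and 24 to 19 after quantile normalization. Ndufs5, at -0.797 (limma adjusted p = 0.0379), was the 1 of them past the threshold, and its difference was over 3 times the size of any in complexes II to V. No complex I gene passed in the 6 fits that left out 1 array, where the smallest limma adjusted p ran from 0.0517 to 0.23. Of all probe sets, 4 passed without wildtype 430 and none in the other fits without 1 array. Ndufs5 passed in the refits of normalization, filter, variance and array weights, and without both wildtype 430 and knockout 427. Its limma adjusted p there ran from 0.0101 to 0.0428. With all arrays the other 42 ran from -0.206 to 0.166. Mitochondrial ribosomal proteins, which translate the subunits made in the mitochondrion, had 47 of 66 genes above 0 (median 0.0399) and none past the threshold. Their count above 0 was 37 (median 0.0101) without knockout 427 and 40 after quantile normalization, and their median was 0.0878 without knockout 431. These groups were compared by description only.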

How the data were processed

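The labels' protocols describe biotinylated cRNA from 6 mouse liver RNA samples, prepared by the Affymetrix procedure. The deposited table holds 1 log2 expression value per gene and array, read as log2 from the values (5.38 to 14.69). How the authors corrected background, normalized and summarised the arrays is not given in the sources used here. No detection calls were used. Of 16395 rows, 64 control rows were left out. The platform annotation named 15644 probe sets and the RefSeq table (GRCm38.p6) 473 more by Entrez number; 214 have no name. Groups came from the sample titles.

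All 16331 probe sets were fitted with limma 3.58.1 (lmFit and eBayes, R 4.3.3; residual degrees of freedom 4, prior 4.85). Tests were two-sided, p-values were adjusted over all probe sets by Benjamini-Hochberg, and the threshold was 0.05. The number of arrays limits the precision. The fit was checked on simulated data. Members and lists were chosen with earlier results of these data known. Given in full were genes whose groups did not overlap, the 3 with the smallest p in each complex, the subunit c genes and the isoform pairs; of each pathway list, the 4 genes with the smallest p. Cox6b2, Cox6b1 and the single marker genes were named outside this rule, after their values were seen. Alternatives were median centring, quantile normalization, array weights, a robust variance with an intensity trend, a filter at the 40th percentile of the mean, thresholds of 0.1 and 0.2, and fits without 1 array or without both wildtype 430 and knockout 427. Python 3.11.15 with matplotlib 3.10.9 drew the figures.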

Additional observations from a re-analysis of the deposited data

How the results depend on the processing

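The labels give the groups no shared replicate number and state no pairing, so no paired fit was made. None of the 36 genes passed an adjusted p of 0.05 in any of the 12 refits, and none passed 0.1 or 0.2 with all arrays; their smallest adjusted p over the refits was 0.684, for Uqcrq without knockout 431. The count at an unadjusted p under 0.05 was 0 with all arrays and 1 with array weights (2.78%, against 5.61% of all probe sets). It was 0 to 4 when 1 array was left out (0% to 11.1%, against 3.58% to 6.95%). Groups did not overlap for 2 genes with all arrays (5.56%, against 9.57%) and for 5 after quantile normalization (13.9%, against 9.93%). The count was 4 to 8 when 1 array was left out (11.1% to 22.2%, against 17.2% to 22.2%). It was 11 without both wildtype 430 and knockout 427 (30.6%, against 34.6% of all probe sets). Fewer arrays make non-overlap easier to reach. Counts above 0 stayed between 19 and 24 of the 36 genes, and the filter gave 17 of the 32 genes it kept. The median of the 36 genes ran from 0.000882 to 0.0169. Of 22 genes given in full, a set chosen in part by small p, 8 changed sign in a refit. Of the rest of the 36 genes, all but Cox6b1, Cox6c and Atp5mpl did so. The cause was not tested. Array weights gave 0.00532 for Sdha and 0.0543 for Cox6b2. Without both wildtype 430 and knockout 427, Sdha was 0.0703, Cox4i2 0.0273 and Atp5g1 -0.0161. When 1 array was left out, Sdha ran from -0.0553 to 0.0609, Sdhc from -0.111 to 0.0534, Cox4i2 from -0.0654 to 0.00879, Cox6a2 from -0.0901 to 0.0566, Cox6b2 from -0.499 to 0.472, Cox7a2 from -0.00146 to 0.131, Cox8a from -0.00651 to 0.0413 and Atp5g1 from -0.00635 to 0.0605.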

Other observations

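The genes named here, which shared the pattern of Cox6b2 with a large gap, were not respiratory subunits. Among the subunits, Cox6a2 also had its highest values on knockout 427 (7.32) and wildtype 430 (7.22). Its next value was close below, at 7.20. After Cox6b2, and apart from Dmbt1, whose highest value was on knockout 429, the largest gaps below the second highest value belonged to G0s2, B3galt1, Slc25a30 and Abhd5, each with wildtype 430 and knockout 427 on top. G0s2, an inhibitor of the triglyceride lipase of lipid droplets, read 10.71 on wildtype 430 and 11.08 on knockout 427 against 9.03 to 9.51 on the other arrays. Abhd5, the activator of the same lipase, read 9.48 and 9.95 against 8.31 to 8.48. Slc25a30, a mitochondrial carrier, read 10.11 and 9.75 against 7.51 to 8.58, and the glycosyltransferase gene B3galt1 8.10 and 8.12 against 6.84 to 6.91.

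Further genes, named after their values were seen, had their extreme values on the same arrays. Angptl8, a secreted protein, read 9.19 and 9.50 there against 7.98 to 8.46 elsewhere. Cyp4a10, a fatty acid hydroxylase, read 9.44 and 9.71 against 10.59 to 11.68, and Pdk4, which restrains pyruvate dehydrogenase, 7.29 and 7.18 against 7.75 to 8.12. Cd36, a fatty acid transporter, read 7.70 and 7.74 against 8.12 to 8.28. Alas1 was highest on these arrays (12.51 and 12.08 against 10.30 to 11.39), and Srebf1 was lowest (10.50 and 9.76 against 10.74 to 11.90). No label separates these arrays from the others, and the cause was not tested.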
